A study of Mus musculus with 8 samples.

Results

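The genes Il2, Csf2, Tnf, Lta and Il10 encode cytokines that CD8 T cells can secrete, and these 5 genes were chosen by symbol from the 32285 genes measured. Single-cell RNA sequencing had been done on mouse CD8 T cells activated and grown with bone marrow stromal cells whose mitochondria carried the red fluorescent protein dsRed. The study's title names the effect of mitochondrial transfer on the differentiation and function of anti-tumor T cells. After the culture, T cells with dsRed (MitoPositive) and T cells without it (MitoNegative) were separated by flow cytometry. Both had shared the culture with the stromal cells, so neither group is a T cell grown alone. The cells were sequenced at day 0 or injected into B6 mice carrying B16KVP tumors, a line of the B16 mouse melanoma, and taken out again on day 7.

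There were 6 groups of 3 samples, 1 sample per donor mouse in each. MitoPositive and MitoNegative cells came from the tumor at day 7, from the spleen at day 7, and from the culture at day 0. At day 7 the names describe the cells when they were injected. Cells of both arms of a donor had been placed in recipients with different host codes, so the arm and the recipient cannot be told apart at day 7. Tumor and spleen cells of 1 arm of a donor shared a host code. The 6 culture samples shared 1 library and the 12 day 7 samples came from 3 libraries, 1 per donor, so day and library cannot be told apart and levels at the 2 days are only set side by side. The labels give 2 maps of the culture hashtags, the antibody tags that mark each cell's sample. The map with odd numbers for MitoPositive cells was used because it also stands in the deposited hashtag list.

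The sums held 16226 cells, 5610 from culture and 10616 from day 7, with 30 to 3385 cells and 315910 to 26406072 UMIs (counted RNA molecules) per sample. The MitoNegative tumor sample of donor 1 had 30 cells and the MitoPositive spleen sample of donor 3 had 48. Median UMIs per cell were 9982.5 to 21219 in the tumor samples, 5321 to 7366.5 in the spleen samples and 5875 to 8599 in the culture samples. The 6 T cell markers Cd3d, Cd3e, Cd3g, Cd8a, Cd8b1 and Trac were detected in every group, and Cd4 and Foxp3 together reached at most 18.8 CPM in any sample, where CPM stands for the UMIs of a gene scaled to a common total of UMIs per sample. Between 1 and 9 cell barcodes were shared by any 2 libraries.

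Interleukin 2, the product of Il2, drives T cell division and is made by T cells soon after their antigen receptor is engaged. Csf2 encodes GM-CSF, which acts on myeloid cells. Tnf and Lta encode related ligands of the TNF receptors and lie next to each other within the major histocompatibility complex, and Il10 encodes an inhibitory cytokine that dampens antigen-presenting cells. Transcription of such genes follows receptor signals through NFAT, AP-1 and NF-kappaB. Their mRNAs are short-lived in resting T cells because AUUUA elements in the 3′ untranslated region recruit decay proteins.

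The AUUUA elements are the sequence feature that links most of these genes, so for each gene the 30 bases of its 3′ untranslated region that hold the most of them are printed, as DNA from the GRCm38 genome with each ATTTA in capitals. The stretches lie at chr3:37121040-37121069 for Il2, chr11:54247329-54247358 for Csf2, chr17:35199679-35199708 for Tnf and chr17:35203408-35203437 for Lta, all on the minus strand, and at chr1:131024372-131024401 on the plus strand for Il10.
Il2: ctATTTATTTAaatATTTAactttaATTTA
Csf2: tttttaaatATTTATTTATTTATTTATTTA
Tnf: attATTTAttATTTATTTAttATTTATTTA
Lta: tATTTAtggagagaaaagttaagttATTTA
Il10: cctcgtttgtacctctctccgaaatATTTA

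Counted along the longest annotated 3′ untranslated region of each gene (GENCODE), with overlapping matches included, ATTTA occurred 7 times in Il2, 9 times in Csf2, 8 times in Tnf, 3 times in Lta and 6 times in Il10. The median gene had 1 in 961 bases, over 21020 genes. At least as many were found in 13.3%, 8.57%, 10.5%, 35.7% and 16.9% of genes for Il2, Csf2, Tnf, Lta and Il10, in that order. The 9-base form TTATTTATT, which overlaps ATTTA and occurred in 7.66% of genes, was found 1 time in Il2, 4 times in Csf2, 5 times in Tnf and 1 time in Lta, with no match in Il10. Lta and Il10, the genes with the sparsest printed stretches, still exceeded the median gene in number of ATTTA elements. A match is a description of the letters, not evidence of decay.

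Il2, Tnf and Lta are the genes whose levels differed between MitoPositive and MitoNegative cells below, so the 250 bases before their RefSeq starts are printed (build GRCm38.p6, minus strand, chr3:37125955-37126204 for Il2, chr17:35202008-35202257 for Tnf and chr17:35205352-35205601 for Lta). Capitals mark GGAAA, the core that NFAT proteins bind, on either strand (TTTCC on the other), and TATAAA, the TATA box.
Il2: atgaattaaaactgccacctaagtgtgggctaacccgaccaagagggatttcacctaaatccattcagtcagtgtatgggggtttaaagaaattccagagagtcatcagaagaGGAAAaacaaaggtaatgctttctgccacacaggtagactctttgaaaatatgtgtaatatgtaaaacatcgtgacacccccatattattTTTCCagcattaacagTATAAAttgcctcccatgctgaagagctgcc
Tnf: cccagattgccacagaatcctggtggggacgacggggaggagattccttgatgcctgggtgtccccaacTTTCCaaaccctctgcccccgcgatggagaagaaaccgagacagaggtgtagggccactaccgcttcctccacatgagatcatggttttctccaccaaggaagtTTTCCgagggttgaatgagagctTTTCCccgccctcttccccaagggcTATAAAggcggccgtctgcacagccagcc
Lta: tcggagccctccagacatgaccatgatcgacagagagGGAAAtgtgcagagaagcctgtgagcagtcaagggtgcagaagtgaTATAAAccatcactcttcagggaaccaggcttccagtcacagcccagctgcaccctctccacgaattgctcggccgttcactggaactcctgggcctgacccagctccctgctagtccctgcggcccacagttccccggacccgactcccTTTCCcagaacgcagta

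GGAAA occurred 2 times in the Il2 window, 3 times in the Tnf window and 2 times in the Lta window, and 55.6% of 27025 promoters of this length hold it on either strand. TATAAA occurred 1 time in each, 25 bases before the start of Il2, 23 bases before that of Tnf and 161 bases before that of Lta, against 13% of promoters with a match. TGANTCA, the AP-1 motif, had no match in these windows, and 6.87% of promoters hold it. The genes lie on GRCm38 at chr3:37120523-37125959 (Il2), chr11:54247271-54249667 (Csf2), chr17:35199381-35202007 (Tnf), chr17:35203165-35205351 (Lta) and chr1:131019845-131024974 (Il10). Tnf and Lta are separated by 1157 bases and share a strand.

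Cells taken from tumors held more Il2 and Lta RNA than cells of the same arm taken from spleens, whereas Tnf did not pass the test in either arm. Csf2 and Il10 entered the fit only through tumor samples, where they were high, so their tissue values are given as a description with no test. Levels are given in CPM, always with donor 1 before donor 2 and donor 3. MitoPositive tumor samples had Csf2 levels of 108, 118 and 70.0 CPM and their spleen counterparts 2.11, 2.48 and 0 CPM. In the MitoNegative arm Csf2 had 181, 42.5 and 37.6 CPM in tumor samples, against 0.871, 0.634 and 0 in spleen samples. The tumor and spleen samples did not overlap in either arm, and the sample of donor 3 had no Csf2 UMI in either arm of the spleen. The fitted log2 fold change of Csf2, tumor over spleen, was 5.81 ± 0.40 (SE) in MitoPositive cells and 7.001 ± 0.48 in MitoNegative cells.

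Il2 had 45.7, 54.2 and 13.9 CPM in MitoPositive tumor samples, against 4.93, 6.80 and 3.17 in MitoPositive spleen samples. In MitoNegative samples it had 119, 152 and 71.2 CPM in tumors, against 13.8, 17.4 and 18.5 in spleens. Again no tumor sample was as low as a spleen sample of its arm, and by edgeR's quasi-likelihood test over 11769 genes Il2 was higher in tumors by 2.93 ± 0.35 (log2 fold change ± SE, adjusted p = 8.1e-06) in MitoPositive cells and by 2.90 ± 0.30 (adjusted p = 3.6e-06) in MitoNegative cells, folds of 7.62 and 7.46. In the MitoPositive tumor sample of donor 1, however, 105 of 116 Il2 UMIs came from 1 cell. Without that cell the sample lay within the range of the MitoPositive spleen samples. Lta had 18.9, 15.8 and 10.2 CPM in MitoPositive tumor samples, against 9.15, 7.60 and 3.17 in the spleen samples. It had 30.2, 33.4 and 42.8 CPM in MitoNegative tumor samples, against 9.92, 11.8 and 9.52 in the spleen samples. Lta was higher in tumors by 1.00 ± 0.25 (adjusted p = 0.0032) in MitoPositive cells and by 2.00 ± 0.25 (adjusted p = 2e-05) in MitoNegative cells.

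Tnf, whose protein is an inflammatory product of CD8 T cells, had overlapping levels in both tissues. It had 23.7, 12.8 and 20.2 CPM in MitoPositive tumor samples and 15.3, 22.1 and 19.0 in the spleen samples, and 30.2, 44.6 and 28.0 CPM in MitoNegative tumor samples and 33.0, 32.3 and 39.1 in the spleen samples. The log2 difference between tumor and spleen was -0.03 (95% interval -0.50 to 0.44) in MitoPositive cells and 0.02 (-0.49 to 0.52) in MitoNegative cells, and its sign turned under several alternatives. Il10 had 0.789, 1.53 and 1.05 CPM in MitoPositive tumor samples and no UMI in the MitoPositive spleen samples. In MitoNegative samples it had 4.03, 6.08 and 6.00 CPM in tumors, against 0.303, 0.253 and 0 in spleens. Il10 passed the filter on low counts through the MitoNegative tumor samples. Its pooled level over the MitoPositive tumor samples was 1.29 CPM, with a 95% counting interval of 0.917 to 1.76. That was 8.56 times a floor of 3 UMIs over the 3 spleen samples (0.151 CPM), a description and not a lower bound. The fitted log2 fold change of Il10 was 4.47 ± 0.69 in MitoNegative cells.

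Of Il2, Tnf and Lta, the 3 genes that did not enter through tumor samples alone, 2 were higher in tumors in the MitoPositive arm (background 29.8% of all genes higher, 29.0% lower) and in the MitoNegative arm (background 21.0% higher, 23.5% lower). A large share of all genes thus passed the test between the tissues. Leaving out donor 2 ended the call of Lta in the MitoPositive arm (log2 fold change 0.85, adjusted p = 0.11). Summed levels alone cannot separate fewer positive cells from less RNA per cell, so shares of cells are given further on.

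**Figure D1:**
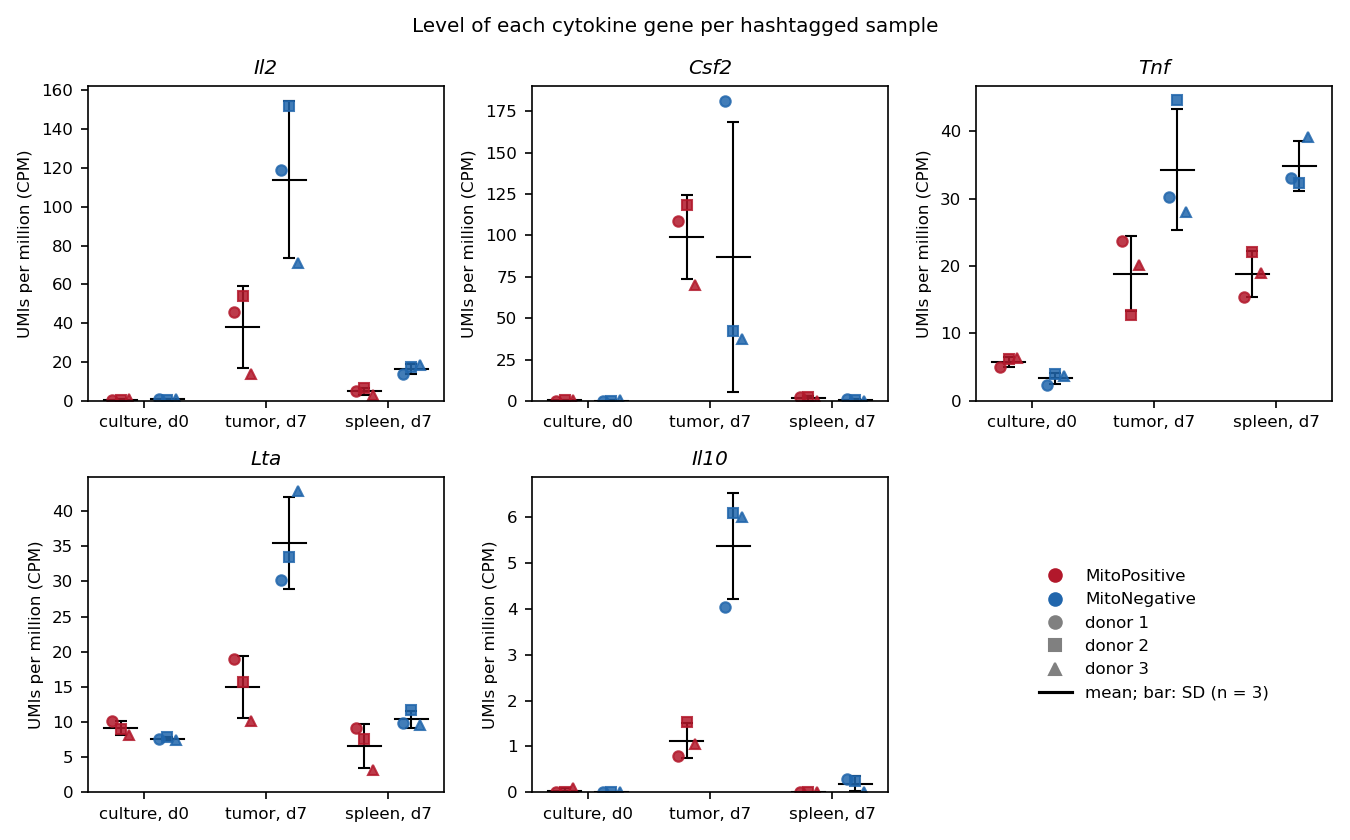
Level of each of the 5 genes in every hashtagged sample, in CPM on linear axes that start at 0, 1 panel per gene, with 1 point per donor, the mean as a line and the SD as a bar (n = 3), MitoPositive samples left of MitoNegative samples. Csf2 and Il2 stand higher in the tumor samples of both arms than in the spleen samples, and Tnf overlaps between tumor and spleen.

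Within the tumor, MitoPositive cells held less Il2 and Lta RNA than MitoNegative cells, and Csf2 did not differ by the test. Il2 averaged 37.9 ± 21.2 CPM in MitoPositive and 114 ± 40.6 CPM in MitoNegative tumor samples (SD, n = 3 each), and every MitoPositive sample was below every MitoNegative one. The log2 fold change was -1.65 ± 0.28 (adjusted p = 0.019 by edgeR). Mean Lta levels were 14.95 ± 4.44 CPM for MitoPositive and 35.5 ± 6.54 CPM for MitoNegative tumor samples, again without overlap, with a log2 fold change of -1.40 ± 0.24 (adjusted p = 0.019). These were 2 of the 5 genes, both lower, where 0.331% of all genes were lower and 0.246% higher. That Il2 was lower in MitoPositive tumor cells was known from earlier work on these data and is not independent support.

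Tnf and Il10 were below the MitoNegative samples in each MitoPositive tumor sample, but did not pass the test over all genes, which Il10 entered through its MitoNegative tumor samples. For Tnf the means were 18.9 ± 5.57 CPM (MitoPositive) and 34.3 ± 8.99 CPM (MitoNegative), with a log2 fold change of -0.86 ± 0.27 (adjusted p = 0.19). Mean Il10 levels were 1.12 ± 0.378 CPM for MitoPositive and 5.37 ± 1.16 CPM for MitoNegative samples, with a log2 fold change of -2.21 ± 0.54 (adjusted p = 0.10), and its totals were 39 and 23 UMIs. In the MitoNegative tumor cells 11 of those 23 Il10 UMIs came from 1 cell. Csf2, tested at day 7 because of its tumor levels, averaged 98.9 ± 25.5 CPM over MitoPositive and 87.1 ± 81.6 CPM over MitoNegative samples. Its groups overlapped because the MitoNegative sample of donor 1 had 181 CPM, above every MitoPositive sample, while those of donors 2 and 3 were below every MitoPositive sample. The log2 fold change of Csf2 was 0.56 ± 0.29 (adjusted p = 0.48).

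The tumor calls were lost under several alternatives while the fold changes stayed below 0, at -1.93 to -1.42 for Il2 and -1.63 to -0.91 for Lta over 13 alternatives. Il2 lost its call without donor 2 (adjusted p = 0.11), without the donor block (0.11), without the samples under 50 cells (0.062), without each sample's cell of highest count (0.065) and with HTODemux as hashtag caller (0.11), and Lta lost it without donor 2 (0.12), without donor 3 (0.22), without the highest cells (0.099) in a fit of the tumor alone (0.13) and with HTODemux (0.098). Csf2 gained a call as higher in MitoPositive cells without donor 1 (log2 fold change 1.16, adjusted p = 0.030), without the samples under 50 cells (1.18, 0.032), without the highest cells (1.60, 0.010) and with no filter on low counts (0.56, 0.040). Markers of other cell types were also measured here. The summed level of 8 myeloid markers was 8.32 to 18.6 CPM in MitoPositive and 18.1 to 86.8 CPM in MitoNegative tumor samples, which overlapped. That of 5 melanoma markers was 0.789 to 3.31 CPM in MitoPositive and 4.05 to 197 CPM in MitoNegative samples. These did not overlap, but the 197 CPM came from donor 3, and MitoNegative donors 1 and 2 had 6.04 and 4.05 CPM. In both of those samples Tyrp1, Dct and Tyr were at 0. The same markers summed to 5.83 to 8.92 CPM in MitoPositive and 7.89 to 8.25 CPM in MitoNegative culture samples, taken before transfer. Of the 5 melanoma markers 1 was at 0 in all MitoPositive samples. Of 6 stromal markers 4 were at 0 in the MitoPositive samples and all 6 in the MitoNegative samples. The part of other cell types in the result was not tested.

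In the spleen, MitoPositive cells held less Il2 and Tnf RNA than MitoNegative cells. Il2 averaged 4.96 ± 1.82 CPM in MitoPositive and 16.6 ± 2.46 CPM in MitoNegative spleen samples, and the groups did not overlap. The log2 fold change was -1.69 ± 0.36 (adjusted p = 0.012). Mean Tnf levels were 18.8 ± 3.38 CPM for MitoPositive and 34.8 ± 3.72 CPM for MitoNegative spleen samples, again without overlap, with a log2 fold change of -0.82 ± 0.23 (adjusted p = 0.047). These were 2 of the 5 genes, both lower, where 4.15% of all genes were lower and 2.23% higher.

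Lta averaged 6.64 ± 3.10 and 10.4 ± 1.21 CPM in MitoPositive and MitoNegative spleen samples, with a log2 fold change of -0.40 ± 0.25 (adjusted p = 0.42). Csf2 was near the limit of detection, with 46 UMIs over 3432 MitoPositive cells and 28 UMIs over 5134 MitoNegative cells, and its log2 fold change was 1.76 ± 0.67 (adjusted p = 0.15). Il10 had 0 and 10 UMIs in the same MitoPositive and MitoNegative cells, and the 0 allows up to 0.0874% of MitoPositive cells with a UMI. The MitoPositive sample of donor 3 held 1 Il2 UMI, 1 Lta UMI, 6 Tnf UMIs and no Csf2 UMI in 48 cells, so its CPM values carry a large counting error. The 8 myeloid markers summed to 58 to 184 CPM in MitoPositive and 56.4 to 106 CPM in MitoNegative spleen samples, which overlapped, and their part in the result was not tested. Il2 lost its call without donor 1 (adjusted p = 0.13), without donor 2 (0.092), without the donor block (0.12) and with HTODemux (0.36), with log2 fold changes of -1.95 to -1.25 over 13 alternatives. Tnf kept its call under 4 of 13 alternatives and lost it under the others, such as without donor 1 (log2 fold change -0.58, adjusted p = 0.62), without donor 3 (0.055) and without the samples under 50 cells (0.099). Csf2 gained a call as higher in MitoPositive spleen cells with no filter on low counts (adjusted p = 0.0002), without the highest cells (0.045) and without the samples under 50 cells (0.049).

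A test of the difference between the tumor effect and the spleen effect of the arm called 0 of the 5 genes by edgeR and by DESeq2 (background 0.765% higher, 0.289% lower, with an unadjusted p under 0.05 for Lta alone). For Il2 the difference of the effects was 0.03 with a 95% interval of -0.80 to 0.86 on the log2 scale. The Lta effect in the tumor lay 1.00 ± 0.34 below that in the spleen (unadjusted p = 0.010, adjusted p = 0.19 by edgeR). The Tnf difference was -0.05 (-0.73 to 0.63), and that of Csf2 was -1.19 (-2.61 to 0.22).

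In culture, before transfer, MitoPositive cells held more Tnf RNA than MitoNegative cells, and Il2, Csf2 and Il10 were too low to be tested. MitoPositive samples had Tnf levels of 4.96, 6.20 and 6.32 CPM, against 2.35, 3.95 and 3.72 CPM for MitoNegative samples. The groups did not overlap, and the log2 fold change was 0.85 ± 0.25 (adjusted p = 0.047 by edgeR over 11436 genes). Lta had 10.2, 9.02 and 8.16 CPM in MitoPositive samples, against 7.59, 7.89 and 7.44 in MitoNegative samples. Its groups did not overlap either, but its log2 fold change of 0.29 ± 0.16 did not pass (adjusted p = 0.32). The Tnf shares of cells in culture, given further on, were below the share found in day 7 barcodes with little Cd3. Of the 2 genes tested 1 was higher, where 6.03% of all genes were higher and 3.23% lower.

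The summed counts in culture were 30 UMIs of Il2, 13 of Csf2 and 1 of Il10 over 5610 cells. The Tnf call ended under DESeq2 (adjusted p = 0.14), with HTODemux (0.17), without the highest cells (0.060) and in 8 of 9 fits that left out 1 donor or sample, with adjusted p-values of 0.023 to 0.27 in those 9. Under the other map of the hashtags, which the extraction protocol gives, it turned to -0.07 and 0 genes were called, whereas with donor as a block the fit called 2295 genes rather than 1059 and Tnf had an adjusted p of 0.0087.

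**Figure D2:**
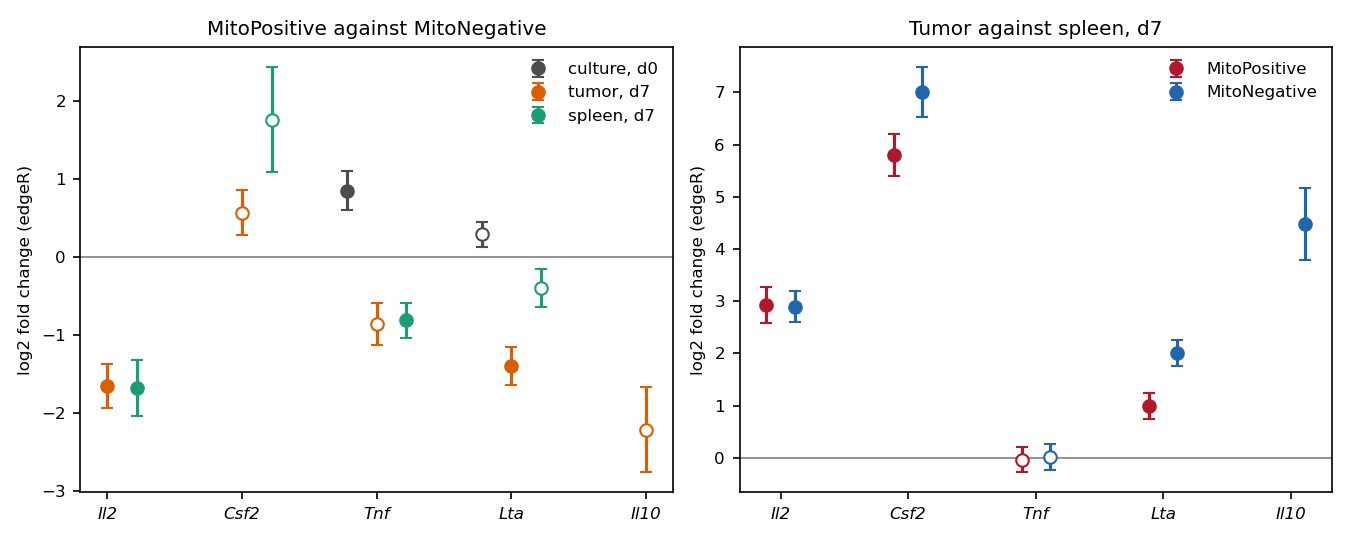
Fitted log2 fold change of each gene, MitoPositive over MitoNegative cells in the left panel and tumor over spleen in the right panel. Bars are 1 SE and filled points mark an adjusted p under 0.05. Genes not tested, and Il10 against spleen samples with no UMI, are left out. Csf2 and Il10 entered the right panel through tumor samples, so their fill there is not read as a test. Il2 lies below 0 in MitoPositive cells of both tumor (-1.65) and spleen (-1.69), and Tnf lies near 0 between tumor and spleen.

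The share of cells with at least 1 UMI gave the same order of arms for Il2 in both tissues. In the tumor 4.68%, 2.83% and 3.01% of MitoPositive cells of donors 1, 2 and 3 held an Il2 UMI, against 26.7%, 15.5% and 9.01% of MitoNegative cells. In the spleen the shares were 2.92%, 3.46% and 2.08% of MitoPositive cells, against 8.92%, 10.1% and 11.4% of MitoNegative cells. No MitoPositive sample reached a MitoNegative one. With 3 samples against 3 the exact two-sided permutation test cannot go below p = 0.1, which these comparisons reached (adjusted p = 0.188 over 15 tests of shares).

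Tnf was found in 7.69%, 9.50% and 10.4% of MitoPositive and 17.4%, 15.6% and 20.6% of MitoNegative spleen cells, and in 2.66%, 4.48% and 4.98% of MitoPositive and 1.26%, 2.07% and 2.45% of MitoNegative culture cells, without overlap in either place. In tumors the Tnf shares overlapped, at 22.8%, 13.5% and 20.5% of MitoPositive and 20%, 36.9% and 35.1% of MitoNegative cells. Lta shares did not overlap in the tumor (13.5%, 14.4% and 10.5% of MitoPositive, against 16.7%, 17.9% and 30.6% of MitoNegative cells), in the spleen (4.33%, 3.33% and 2.08%, against 6.56%, 6.39% and 6.06%) or in culture (6.14%, 7.36% and 7.32%, against 4.00%, 5.47% and 4.91%). With all UMIs, MitoPositive cells thus had the smaller Lta share in the tumor and spleen and the larger one in culture. Each of these comparisons without overlap had the smallest exact permutation p of 0.1.

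Csf2 was found in 20.5%, 28.7% and 24.5% of MitoPositive tumor cells and 26.7%, 14.3% and 17.1% of MitoNegative tumor cells, which overlapped. Il10 was found in 1.17%, 2.02% and 1.80% of MitoPositive and 6.67%, 4.76% and 3.604% of MitoNegative tumor cells. A comparison was made with 195 barcodes of clusters with little Cd3 (median 3168 UMIs). They held Il2 in 1.54%, Csf2 in 0.513%, Tnf in 5.64%, Lta in 2.56% and Il10 in 1.54%. Igkc, Dct, S100a9 and Vcam1 were among the leading genes of these clusters, so their shares do not measure free RNA alone. Of the 3 Il10-positive and 11 Tnf-positive barcodes, 2 and 3 lay in 1 cluster of 16 barcodes. The Il2 shares in culture and the Il10 shares in spleen and culture were at or below those shares and may be background. The Csf2 shares of all 3 MitoNegative culture samples and 2 of 3 MitoNegative spleen samples were at or below them too. So were the Tnf shares of all 6 culture samples, the Csf2 shares of MitoPositive culture donors 1 and 3 and MitoPositive spleen donor 3, the Lta share of MitoPositive spleen donor 3 and the Il10 share of MitoPositive tumor donor 1. No such cluster was found in the culture library, and the comparison there is with day 7.

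Deeper cells show more genes, so each cell was also thinned to 3000 UMIs and shallower cells were left out. The thinned Il2 shares still did not overlap in the tumor, at 1.91%, 1.69% and 1.40% of MitoPositive and 17.2%, 11.1% and 4.59% of MitoNegative cells, or in the spleen, at 1.49%, 2.15% and 0% of MitoPositive and 4.05%, 5.66% and 5.01% of MitoNegative cells. Thinned Tnf shares in the spleen were 2.98%, 6.00% and 4.26% of MitoPositive and 8.49%, 8.71% and 9.63% of MitoNegative cells. Thinned Csf2 shares in the tumor separated the arms, at 10.2%, 13.9% and 9.32% of MitoPositive and 6.90%, 3.70% and 4.59% of MitoNegative cells. Thinned Lta shares in the tumor overlapped. In culture the thinned shares of Tnf and Lta also overlapped (exact permutation p = 0.2 for each). Their means were 1.76% and 3.23% of MitoPositive and 0.935% and 2.07% of MitoNegative cells. For Lta the MitoPositive share was lower in 1 donor and higher in 2. Within MitoPositive cells the thinned Il2 share of the tumor samples (1.40% to 1.91%) lay within the range of the spleen samples (0% to 2.15%), although the summed level was 7.62-fold higher in tumors.

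**Figure D3:**
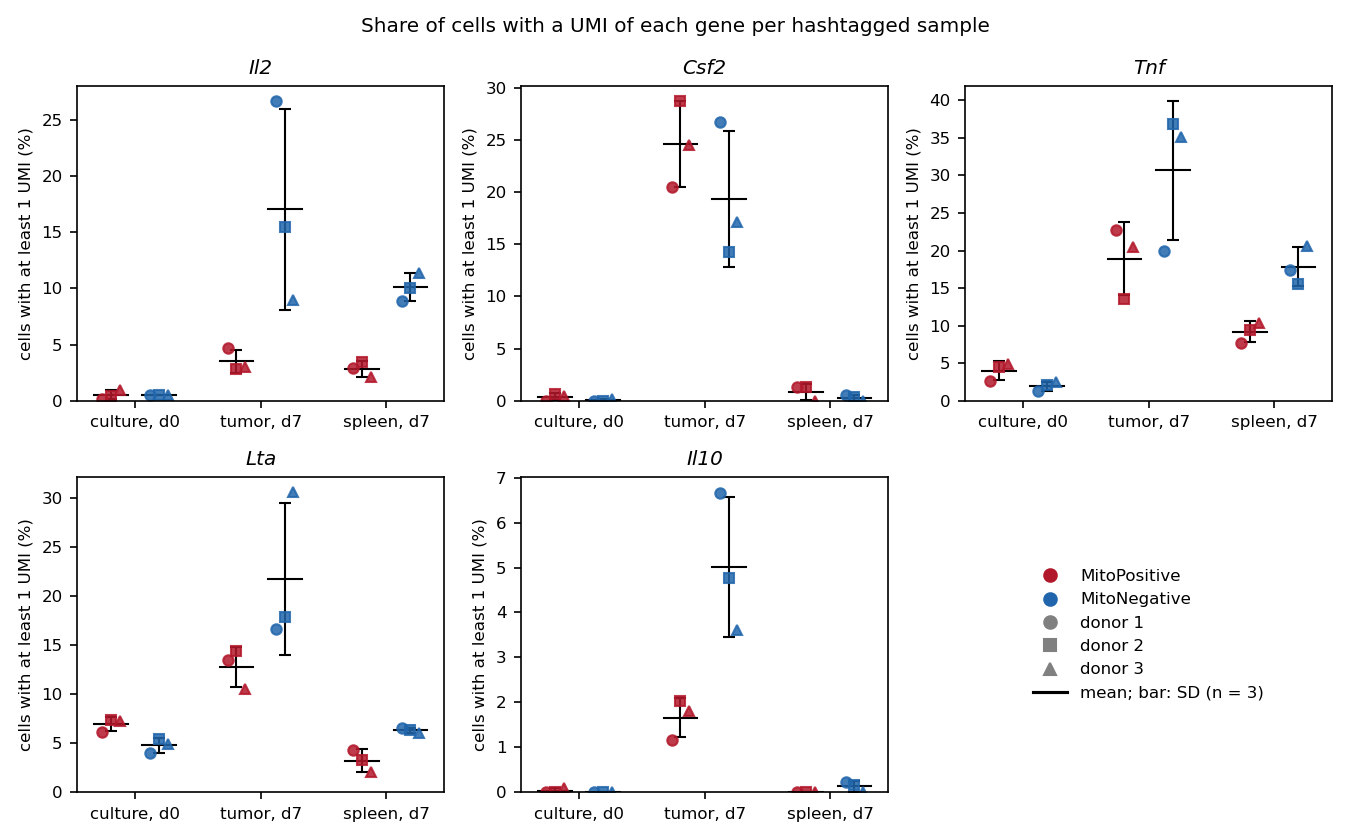
Share of cells with at least 1 UMI of each gene in every hashtagged sample, in percent on linear axes from 0, with 1 point per donor, the mean as a line and the SD as a bar (n = 3), MitoPositive samples left of MitoNegative samples. The Il2 shares of MitoPositive cells lie below those of MitoNegative cells in all 3 donors in tumor and spleen.

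Il2 RNA in tumors was concentrated in a handful of cells. Over the MitoPositive tumor samples 56 of 1825 cells held 1158 Il2 UMIs; 28 of them had 1 UMI, and 15 cells with at least 10 UMIs held 1075, or 92.8%. Over the MitoNegative tumor samples 31 of 225 cells held 387 Il2 UMIs, and 8 cells with at least 10 held 334, or 86.3%. In the spleen no cell of either arm had 10 UMIs of any of the 5 genes, and 92.9% of Il2-positive MitoPositive cells and 84.1% of Il2-positive MitoNegative cells had a single UMI. Tumor cells were also sequenced more deeply, with a median of 15029 UMIs per cell against 6297 in the spleen.

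The single highest cell held 105 of 116 Il2 UMIs in the MitoPositive tumor sample of donor 1, 279 of 883 in that of donor 2 and 64 of 159 in that of donor 3. In MitoNegative tumor samples it held 27 of 59, 47 of 150 and 108 of 178 UMIs. Without it Il2 had 4.36, 37.1 and 8.33 CPM in MitoPositive and 65.4, 106 and 28.1 CPM in MitoNegative tumor samples. MitoPositive donor 2 then stood above MitoNegative donor 3, and the exact permutation p was 0.2. This alternative was chosen after the data had been seen.

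Csf2 was spread over more cells. It had 3001 UMIs in 482 MitoPositive tumor cells, 85 of which had at least 10 UMIs and held 64.4%, and 226 UMIs in 39 MitoNegative tumor cells, 4 of which had at least 10. In the MitoNegative sample of donor 1 a single cell held 66 of 90 Csf2 UMIs. Without each sample's highest cell Csf2 had 87.5, 112.8 and 65.9 CPM in MitoPositive and 52.0, 22.7 and 24.6 CPM in MitoNegative tumor samples, which no longer overlapped (exact permutation p = 0.1). Single molecules were common for Tnf and Lta, with 1 UMI in 212 of 309 Tnf-positive and 165 of 235 Lta-positive MitoPositive tumor cells, and in 47 of 76 and 23 of 54 MitoNegative tumor cells.

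**Figure D4:**
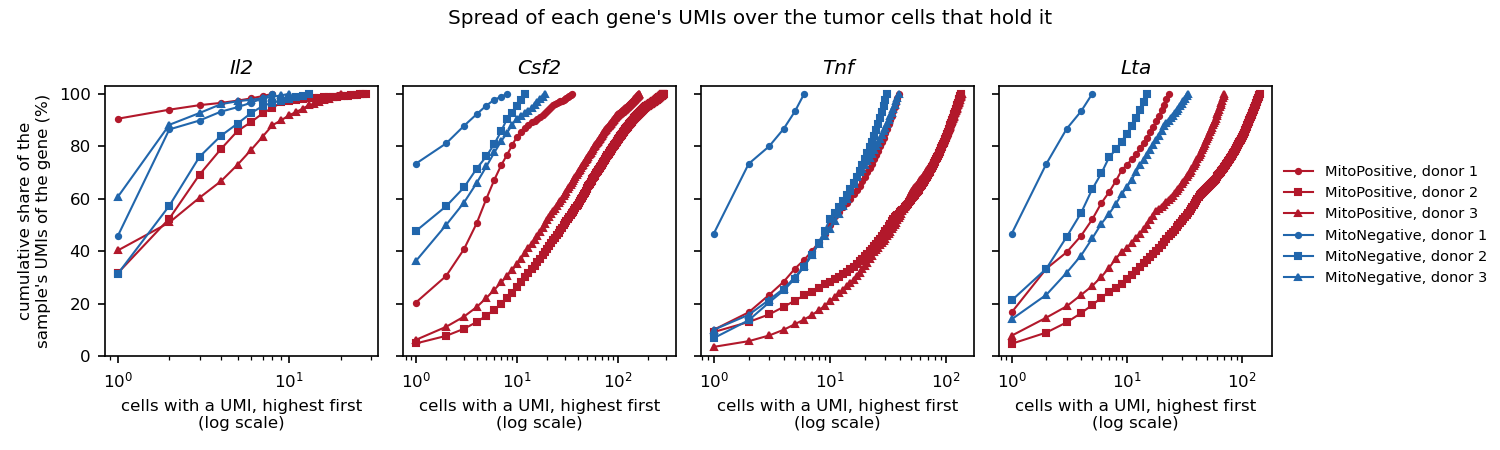
Cumulative share, in percent, of a tumor sample's UMIs of Il2, Csf2, Tnf and Lta against the number of cells with a UMI, ordered from the highest cell on a logarithmic axis, with 1 line per sample. The Il2 lines start between 31.3% and 90.5% at the first cell, and the Csf2 line of MitoNegative donor 1 at 73.3%.

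At least 1 of the 5 genes was detected in 44.4%, 45.7% and 43.6% of MitoPositive and 63.3%, 50% and 61.3% of MitoNegative tumor cells. At least 2 were detected in 15.2%, 13.04% and 13.2% of MitoPositive and 30%, 29.8% and 24.3% of MitoNegative tumor cells, and no cell had all 5. After thinning, at least 2 were detected in 2.55%, 1.80% and 2.02% of MitoPositive and 3.45%, 8.64% and 7.34% of MitoNegative tumor cells, with no overlap. In the spleen at least 1 gene was detected in 13.9%, 16.3% and 12.5% of MitoPositive and 29.2%, 27.5% and 32.0% of MitoNegative cells. MitoNegative cells therefore stood above MitoPositive cells in every donor on these counts, which were not tested.

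Pairs of these genes shared cells to different degrees. In MitoPositive tumor cells Il2 and Csf2 were detected together in 15 cells, where the product of the 2 shares within each sample gives 14.6. Il2 and Tnf were together in 24 cells against 9.71, Il2 and Lta in 15 against 7.20, Csf2 and Lta in 105 against 62.6, Csf2 and Tnf in 104 against 79.8, and Tnf and Lta in 58 against 38.8. Il2 was thus found with Tnf and Lta more often than the product, whereas for Il2 and Csf2 the donors differed, with 3 cells against 1.64, 5 against 8.04 and 7 against 4.90. The 225 MitoNegative tumor cells gave 5 cells with Il2 and Csf2 against 5.70, 16 with Il2 and Tnf against 9.91, and 25 with Tnf and Lta against 18.5.

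In the spleen Il2 and Csf2 were together in 0 MitoPositive cells against 1.48 and in 2 MitoNegative cells against 2.19, counts too small to read. With all UMIs, Tnf and Lta were together in 21 MitoPositive cells against 11.0 and in 107 MitoNegative cells against 57.4. Ifng, the gene of interferon gamma, was detected in 52 of 56 Il2-positive MitoPositive tumor cells, against 32.8 by the product, and in 27 of 31 Il2-positive MitoNegative tumor cells, against 19.99. Depth moves with some of these counts. In the MitoPositive tumor sample of donor 2 the median was 21768.5 UMIs in Csf2-positive and 12473 in Csf2-negative cells, whereas it was 14928.5 in Il2-positive and 15828 in Il2-negative cells. In cells thinned to 3000 UMIs, Il2 and Csf2 were together in 3 MitoPositive tumor cells against 3.36, Il2 and Tnf in 6 against 1.39, and Csf2 and Tnf in 11 against 9.80. Thinned Tnf and Lta were together in 3 MitoPositive spleen cells against 3.22 and in 25 MitoNegative spleen cells against 12.4, so the excess in MitoPositive spleen cells was not seen at that depth.

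**Figure D5:**
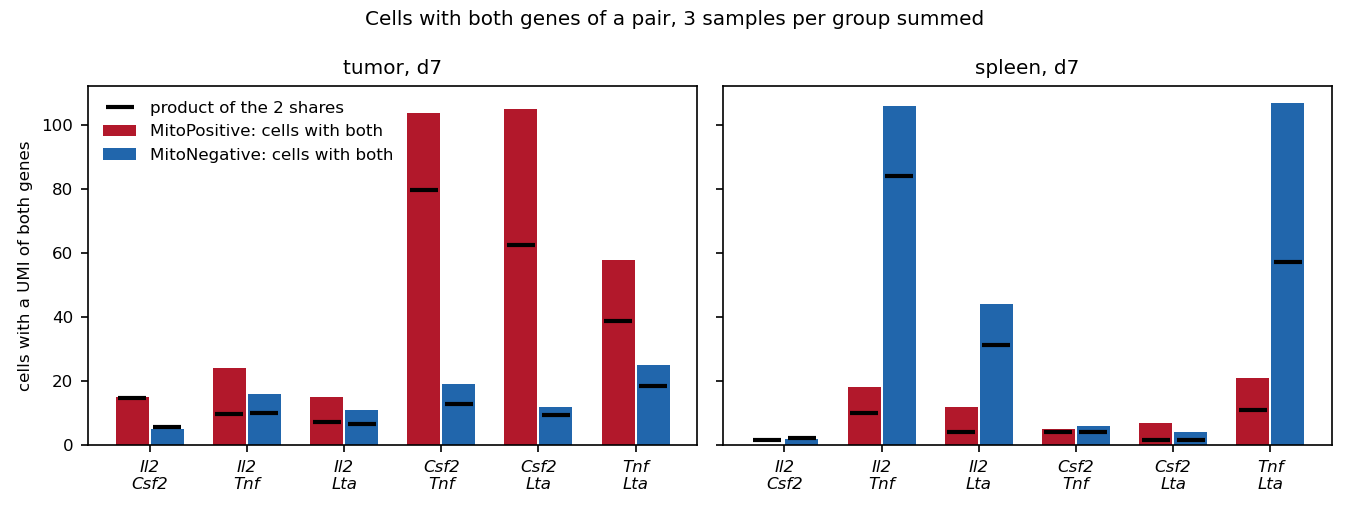
Number of cells with a UMI of both genes of a pair, summed over the 3 samples of each group (bars, MitoPositive left of MitoNegative), beside the number given by the product of the 2 shares within each sample (black dashes). In MitoPositive tumor cells the Il2 and Csf2 bar of 15 cells meets its dash at 14.6, whereas the Tnf and Lta bars rise above theirs in all 4 groups.

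The cells were also clustered by all genes, which is a description since the same genes defined the clusters. Among day 7 cells, cluster 2, led by Xcl1, Ifng and Ccl1, held 1559 cells. Csf2 was detected in 34.3% of them, Tnf in 22.3%, Lta in 18.2% and Il2 in 6.61%. All 15 MitoPositive and all 8 MitoNegative tumor cells with at least 10 Il2 UMIs were in it. Within this cluster Il2 was detected in 5.66%, 3.33% and 4.15% of MitoPositive and 38.1%, 19.7% and 8.91% of MitoNegative tumor cells, so the arms kept their order there. Csf2 was detected there in 33.0%, 37.2% and 37.1% of MitoPositive and 38.1%, 19.7% and 17.8% of MitoNegative tumor cells.

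The spleen cells lay in other clusters. Il2 was detected in 11.4% of cluster 0, led by Id3, Trdc and Slamf6, in 10.1% of cluster 4, led by Ifitm1, Cd7 and Lgals3, and in 0.642% of cluster 1, with Bcl2 and Lef1 among its leading genes. Cluster 1 held 34.3%, 45.9% and 33.3% of MitoPositive and 4.43%, 9.17% and 21.8% of MitoNegative spleen cells, and cluster 4 held 2.30%, 1.15% and 2.08% of MitoPositive and 27.0%, 17.5% and 18.6% of MitoNegative spleen cells. Within cluster 0 alone Il2 was detected in 8.33%, 11.1% and 16.7% of MitoPositive cells (the 16.7% from 6 cells) and in 11.2%, 11.0% and 16.7% of MitoNegative cells. The arms overlapped within that cluster, as they did within clusters 1 and 5. They did not overlap within cluster 3, at 1.61%, 1.51% and 0% of MitoPositive and 6.67%, 7.63% and 4.76% of MitoNegative cells. Nor did they within cluster 4, at 3.85%, 0% and 0% of MitoPositive cells (26, 26 and 1 cells) and 11.0%, 7.94% and 10.2% of MitoNegative cells. Between the arms, MitoPositive spleen samples had the larger cluster 1 share and the smaller Il2 share of the whole sample. Within each arm this order did not hold, as the donor with the most cluster 1 cells had the highest Il2 share. These were MitoPositive donor 2 and MitoNegative donor 3. The part of cluster membership in the Il2 difference was not tested.

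Other genes of these pathways were taken from lists chosen with earlier results of these data known. Of 21 further T cell cytokine and chemokine genes, 11 could be tested at day 7. In MitoPositive tumor cells 3 of the 11 were lower than in MitoNegative tumor cells, where 0.331% of all genes were lower and 0.246% higher. The median log2 fold change of the 11 was -0.27 beside 0.05 for all genes. The 3 lower genes were Ifng (-2.26 ± 0.20, adjusted p = 0.00018), the chemokine gene Ccl4 (-1.73 ± 0.27, 0.015) and the chemokine gene Ccl3 (-1.66 ± 0.25, 0.015), the last named after its value was seen. Ifng had 892, 930 and 555 CPM in MitoPositive tumor samples, against 4506, 5701 and 2024 in MitoNegative tumor samples. In the spleen Ccl3 (-1.93 ± 0.40, 0.010) and Ccl4 (-1.13 ± 0.31, 0.045) were lower and Ccl5 (1.70 ± 0.46, 0.044) was higher in MitoPositive cells. Of the 11 these were 2 lower and 1 higher, where 4.15% of all genes were lower and 2.23% higher.

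Between tumor and spleen 7 of the 11 were higher and 4 lower in each arm, with medians of 3.02 in MitoPositive and 3.81 in MitoNegative cells beside -0.01 and -0.08 for all genes, of which 29.8% and 21.0% were higher and 29.0% and 23.5% lower in the same arms. At least Il3 among the 11 entered through tumor samples, so these counts are only a description. Ccl3 was higher in MitoPositive tumor cells by 6.51 ± 0.39 and Xcl1, a chemokine gene, was higher in MitoNegative tumor cells by 6.75 ± 0.18. Ccl5 (-2.90 ± 0.48), Osm (-2.31 ± 0.30), Il16 and Ltb were lower in MitoPositive tumor cells, and Osm (-2.89 ± 0.48), Il16 (-1.79 ± 0.18), Ccl5 and Ltb in MitoNegative tumor cells, the last pair of each arm named after their values were seen. Il3, a growth factor gene near Csf2, had 9, 100 and 56 UMIs in MitoPositive tumor samples and 0, 257 and 6 in MitoNegative tumor samples, with no UMI in any spleen sample. In culture 8 of the 21 could be tested, and Tgfb1 (0.30 ± 0.07, adjusted p = 0.023) was higher in MitoPositive cells. It was 1 of the 8, where 6.03% of all genes were higher and 3.23% lower.

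Of 12 genes for receptors of these cytokines 9 could be tested. Il2ra, which encodes a subunit of the interleukin 2 receptor, had 29.7, 23.9 and 41.2 CPM in MitoPositive spleen samples, against 6.44, 10.8 and 9.02 in MitoNegative spleen samples. It was higher by 1.78 ± 0.19 (adjusted p = 0.0002), opposite in direction to Il2 in the same cells. It was the only receptor gene of the list called there, 1 of 9, where 2.23% of all genes were higher and 4.15% lower. In tumors 0 of 9 receptor genes were called between the arms by edgeR (2 at an unadjusted p under 0.05, 1 by DESeq2). Of all genes 0.246% were higher and 0.331% lower there, so 0 of 9 is near that share. The Il2ra effect in the tumor lay 1.91 ± 0.24 below that in the spleen (adjusted p = 0.015 by edgeR). Between tumor and spleen Il2ra was higher by 2.59 ± 0.17 in MitoPositive and 4.50 ± 0.18 in MitoNegative cells. The TNF receptor genes went opposite ways, Tnfrsf1b higher (1.22 ± 0.14 and 1.01 ± 0.15) and Tnfrsf1a lower (-1.82 ± 0.24 and -2.18 ± 0.36) in MitoPositive and MitoNegative tumor cells. In culture Il2ra was higher in MitoPositive cells by 0.35 ± 0.09 (adjusted p = 0.031), 1 of 9 receptor genes, where 6.03% of all genes were higher and 3.23% lower.

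Of 27 genes for transcription factors that act on these cytokine genes 26 could be tested at day 7 and 23 in culture. Between tumor and spleen 15 were higher and 7 lower in MitoPositive cells (29.8% and 29.0% of all genes) and 13 higher and 7 lower in MitoNegative cells (21.0% and 23.5%), so the lower share was near that of all genes. Fosb, an AP-1 subunit, was higher by 5.73 ± 0.30 in MitoPositive and 6.07 ± 0.30 in MitoNegative tumor cells, and Bhlhe40, which in mouse T cells promotes Csf2 and represses Il10, by 3.95 ± 0.14 in MitoPositive and 4.18 ± 0.14 in MitoNegative tumor cells. Ikzf3, which encodes Aiolos, a repressor of Il2, was lower in tumors, with log2 fold changes of -1.93 ± 0.15 in MitoPositive and -1.51 ± 0.17 in MitoNegative cells. Maf (-2.15 ± 0.21) was also lower in MitoPositive tumor cells, and Nfatc2 (-1.40 ± 0.20) in MitoNegative tumor cells. Between the arms 0 of 26 were called in the tumor by edgeR or DESeq2 (8 at an unadjusted p under 0.05) and 1, Bhlhe40 (0.52 ± 0.14, adjusted p = 0.046), in the spleen. Of all genes 0.246% were higher and 0.331% lower in MitoPositive tumor cells, and 2.23% and 4.15% in MitoPositive spleen cells. These counts are near those shares. In culture Bhlhe40 had 18.0, 19.3 and 21.5 CPM in MitoPositive and 7.23, 11.3 and 10.7 CPM in MitoNegative samples, a log2 fold change of 1.05 ± 0.16 (adjusted p = 0.0017), and Irf4 (0.67 ± 0.18), Tbx21 (0.43 ± 0.10) and Jund (0.38 ± 0.07) were also higher, the last 2 named after their values were seen. Of the 23 tested in culture 4 were thus higher and 0 lower, where 6.03% of all genes were higher and 3.23% lower.

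Of 11 genes of cytokine mRNA decay 0 were called between the arms in culture, tumor or spleen by edgeR or DESeq2. At an unadjusted p under 0.05 there were 1, 2 and 3 in culture, tumor and spleen. Of all genes 6.03% were higher and 3.23% lower in MitoPositive culture cells, 0.246% and 0.331% in the tumor, and 2.23% and 4.15% in the spleen. For 11 genes, 0 calls are near those shares. Between tumor and spleen 4 were higher and 3 lower in MitoPositive cells (29.8% and 29.0% of all genes) and 2 higher and 2 lower in MitoNegative cells (21.0% and 23.5%), shares near those of all genes. Zc3h12a, which encodes the endonuclease Regnase-1, was higher in tumors by 2.05 ± 0.19 in MitoPositive and 2.21 ± 0.20 in MitoNegative cells. Rc3h1, which encodes Roquin-1, was lower, with log2 fold changes of -0.58 ± 0.13 in MitoPositive and -0.44 ± 0.15 in MitoNegative cells.

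Over the 12 day 7 samples the genes with the highest Pearson correlation of log2 CPM with Il2 were Farsb (0.96), 1110065P20Rik, Bccip, Lif and Ramp3. Those for Csf2 were Tnfrsf18 (0.99), Plin2, Xcl1, Riok1 and Rpl5, those for Tnf were Agfg1 (0.87), Vax2, Chd1l, Gcnt1 and Tnfsf14, those for Lta were Oxsr1 (0.97), Ing5, Nlgn2, Zfp593 and Ppp5c, and those for Il10 were Crls1 (0.97), Bccip, Vapa, Pwp1 and Plau. Among the 5 genes themselves Il2 and Lta had 0.93, Il2 and Csf2 had 0.76, and Csf2 and Tnf had -0.05. These samples share 3 libraries and come from tumor and spleen, and the values carry no test.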

How the data were processed

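Libraries were made with the 10x Chromium Next GEM 3′ v3.1 kit, per the labels' protocols. The deposited values are UMI counts per gene and cell barcode from Cell Ranger 7.0.0, per the file headers, and the submitters' processing notes also name Seurat 4.0.5 and mm10/GRCm38. The authors also deposited a list of sorted cell numbers per hashtag, used here only as the hashtag map.

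Of 18092 barcodes, 17458 had at least 500 genes and under 15% mitochondrially encoded UMIs. Cells were clustered per day (scanpy 1.11.5, Leiden resolution 0.5, 2000 variable genes, 30 components), and 195 barcodes in 3 clusters with Cd3 genes in under 50% of cells were left out. A cell was assigned when its highest hashtag had at least 10 UMIs and 3 times the next, which also removes doublets between samples; doublets within a sample were not called. UMIs were summed per hashtagged sample and tested with edgeR 4.0.16 (filterByExpr, TMM, quasi-likelihood test, Benjamini-Hochberg over all genes, threshold 0.05), at day 7 with the donor library as a block. Shares and CPM were compared by exact two-sided permutation tests. Hashtagged samples came from 3 donors. The edgeR p-values measure the spread between samples in culture, and at day 7 the spread left after the donor block. Intervals and floors (3 UMIs) cover counting error only. Donor numbers come from the hashtag list, so equal numbers mark the same donor mouse, and deviations of same-donor samples correlated at 0.083 to 0.339 in culture (3 pairs) and -0.026 to 0.226 at day 7. Because each day 7 library holds 1 donor, the block follows the library there.

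The 5 genes and the 4 further lists were chosen with earlier results of these data known. In each list at most the 2 highest and 2 lowest called fold changes are named, apart from genes named as chosen after their values were seen. Alternatives were DESeq2 1.42.0 and its size factors, no count filter, the donor block, leaving out donors or samples, HTODemux (Seurat 5.3.0, quantile 0.99), the other hashtag map, thinned cells, 1 tissue alone, all barcodes and no mitochondrial limit. Leaving out each gene's highest cell in each sample, and the day 7 samples under 50 cells, was added after seeing the data. The fit was tested on simulated data.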

Additional observations from a re-analysis of the deposited data

Results flagged for a closer look

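Barcodes outside the comparisons also held these RNAs, where a count of 0 would have been possible. Among the 195 day 7 barcodes of clusters with little Cd3, 5.64% held a Tnf UMI and 2.56% an Lta UMI. Among 439 day 7 barcodes of T cell clusters with no assigned hashtag (median 11787 UMIs), 13.4% held Il2, 5.47% Csf2, 21.6% Tnf, 10.02% Lta and 2.05% Il10. Among 598 such culture barcodes (median 14809.5 UMIs), 1.84% held Il2, 7.36% Tnf and 12.7% Lta.

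With the hashtag map and caller used here, the direction of the arm differed between culture and day 7 for Tnf and Lta in every donor. MitoPositive minus MitoNegative samples, averaged over 3 donors, Tnf differed by 2.49 CPM in culture, by -15.4 CPM in the tumor and by -16.0 CPM in the spleen. Lta differed by 1.48 CPM in culture, by -20.5 CPM in the tumor and by -3.77 CPM in the spleen. Under the other hashtag map the fitted log2 fold change of Tnf in culture was -0.0727, below 0 as at day 7. With HTODemux, Lta in the spleen of donor 1 had 8.78 CPM in the MitoPositive and 6.73 CPM in the MitoNegative sample, so that donor no longer differed in direction from culture. The difference between day 0 and day 7 was not tested, because day and library cannot be told apart.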

How the results depend on the processing

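Of the 5 genes, culture called 1, and 0 with DESeq2, HTODemux, the other hashtag map or without each sample's highest cell (0 to 1 leaving out a donor or sample). Tumor called 2, against 5 with no count filter, 0 with HTODemux, and 1 without the replicate block, without the highest cells or with the tumor alone (0 to 3 leaving out a donor). Spleen called 2, against 0 with HTODemux and 1 with DESeq2, its size factors, no replicate block, all barcodes or no mitochondrial limit (0 to 1). Tumor against spleen called 4 in the MitoPositive arm (2 to 4), Csf2 and Il10 included, which entered through tumor samples. The MitoNegative arm (4) and the difference of effects (0) gave the same count in the 10 alternatives that could test all 5 genes; HTODemux and leaving out the highest cells could not test Il10 there. Thinned fits (619 culture cells and 29 day 7 cells per sample) left the called genes under the count filter.

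Signs turned as follows. Culture Tnf was -0.0727 under the other map. Tnf between tumor and spleen (-0.03 MitoPositive) was 0.06 with DESeq2, 0.0192 with no filter, 0.0775 with all barcodes, 0.0089 with no mitochondrial limit and -0.43 to 0.51 leaving out a donor. In MitoNegative cells (0.02) it was -0.0020 with HTODemux, -0.0561 with all barcodes, -0.19 without the highest cells and -0.21 to 0.37 leaving out a donor. The Il2 difference of effects (0.03) was -0.0609 with DESeq2 size factors, -0.0865 without the replicate block, -0.68 with HTODemux and -0.0614 to 0.0972 leaving out a donor. That of Tnf (-0.05) was 0.0025 with no filter, 0.13 with all barcodes, 0.10 without the highest cells and -0.54 to 0.72 leaving out a donor, and that of Il10 was -0.20 with DESeq2. The spleen Csf2 share (0.58 points) was -0.0322 at 2 UMIs, and the culture Il2 share (0.0127 points) was -0.371 thinned, -0.0913 with HTODemux and -0.19 to 0.18 leaving out a donor. The causes were not tested.

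All genes called numbered 1059 in culture (0 to 2295 over the alternatives), 68 in the tumor (2 to 522), 751 in the spleen (7 to 1234), 6919 and 5234 between tissues in MitoPositive and MitoNegative cells (469 to 7176 and 563 to 5382), and 124 for the difference (0 to 650). Few cells limit the tumor MitoNegative samples, and low counts limit Il10, and Csf2 outside tumors.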
